A study of Mus musculus with 7 samples.

Results

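Nrf2, encoded by Nfe2l2, and a set of enzymes that remove reactive oxygen species or keep glutathione and thioredoxin reduced were examined as 10 genes, Nfe2l2, Hmox1, Nqo1, Gclc, Gclm, Txnrd1, Sod1, Sod2, Cat and Gpx1. They were taken by gene symbol, matched through the GENCODE M21 annotation, and are 10 of the 46603 Ensembl genes listed in the count data. At least 1 read was counted for 28894 of those 46603 genes. All 10 symbols matched 1 gene each, and all 10 passed the filter on low counts. The libraries are bulk RNA-seq of 3 pieces of tumor grown from NM1 KO cells and 4 pieces of tumor grown from KO+NM1 cells. NM1 is nuclear myosin 1, an isoform of the gene Myo1c. NM1 KO cells are mouse embryonic fibroblasts (MEFs) of the ATCC line CRL-2752 in which NM1 was deleted by CRISPR/Cas9, and KO+NM1 cells are those KO cells given NM1 fused to HA and V5 tags by a lentivirus, selected with neomycin and tested as single clones. Both groups therefore carry the deletion. The hosts were Balb/c nude females, 16 weeks of age, 5 per group, which lack T cells but keep other immune cells, and the sample descriptions give removal of tumors at the end of 30 days. The site is the right flank in the descriptions and methods but the mammary pad in the text of the study, and tumors from wild-type cells are not among these libraries.

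The descriptions have the KO tumor and the KO+NM1 tumor divided into 4 pieces each, homogenized separately, so each SD and p-value covers the spread between pieces and may hold no difference between mice. Total counts were 26527540 to 28326568 per KO piece and 24088309 to 26841529 per KO+NM1 piece. Host and injected cells are both murine and were counted together. In bulk tissue, fewer cells of a type and less RNA per cell cannot be told apart. Myo1c, whose counts do not separate NM1 from the other isoforms, stood at 313, 289 and 306 CPM (reads of the gene scaled to a common library size) in KO pieces 01 to 03 and at 438, 408, 406 and 382 CPM in KO+NM1 pieces 01 to 04, so the groups did not overlap. Piece KO+NM1 01 stood apart from its group, with a correlation of 0.855 to 0.861 with the other pieces against 0.966 to 0.986 among all other pairs within a group, and results that turn on it are given with and without it.

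Nrf2 is a basic leucine zipper transcription factor. In unstressed cells Keap1 holds it and hands it to the Cul3-Rbx1 ubiquitin ligase, so that it is degraded. When oxidants or electrophiles modify Keap1, Nrf2 accumulates, pairs with a small Maf protein and binds antioxidant response elements (AREs), where the repressor Bach1 competes with it. The control is thus largely of the protein, which RNA-seq does not measure. Textbook targets include Nqo1, Hmox1, Gclc, Gclm and Txnrd1, while Sod1, Sod2, Cat and Gpx1 are the core enzymes that convert superoxide to hydrogen peroxide and then to water.

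The name Nrf2 is also used for Gabpa, a different transcription factor, and the study lists a pair of RT-qPCR primers as Nrf2. The primers are shown because they tell which gene the name stands for there, and they were searched for as exact matches in 141767 transcripts of the reference annotation. Both were found only in 1 of the 2 annotated transcripts of Nfe2l2, with an amplicon of 150 bases, and 0 of 5 Gabpa transcripts held either. The forward primer lies in exon 3 at chr2:75678488-75678510 and the reverse primer in exon 4 at chr2:75677586-75677605 of GRCm38, with Nfe2l2 on the minus strand.
forward primer: tcccatttgtagatgaccatgag
reverse primer: ccatgtcctgctctatgctg

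The core of the ARE, TGACNNNGC, was searched for on both strands in windows from 250 bases before to 50 bases after each transcription start in RefSeq, build GRCm38.p6. It was present in 12.4% of all 32851 windows. A window was held for 8 of the 10 genes, 10 windows in all, and 4 of these, each from a different gene, held the core. Hmox1 and Gclc had no window and were not searched. The 29 bases around each core are printed 5′ to 3′ on the strand that reads TGACNNNGC, with the core in capitals. The search left the base before the core free, and no binding was measured. These stretches are shown because the core is part of the element that Nrf2 binds with a small Maf. They lie at chr2:75704885-75704913, minus strand, for Nfe2l2, at chr3:122245413-122245441, minus strand, for Gclm, at chr10:82859104-82859132, minus strand, for Txnrd1 and at chr16:90220696-90220724, minus strand, for Sod1.
Nfe2l2: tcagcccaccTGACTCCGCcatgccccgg
Gclm: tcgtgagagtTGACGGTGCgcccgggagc
Txnrd1: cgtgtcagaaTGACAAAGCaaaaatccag
Sod1: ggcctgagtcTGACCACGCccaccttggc
The end of the core farthest upstream stood 240 bases before the start of Nfe2l2, 134 before that of Gclm, 92 before one start of Txnrd1 and 56 before that of Sod1. The related AP-1 site, TGACTCA or TGAGTCA, overlapped none of the 4 cores and was absent from all 10 windows, against 5.20% of all windows. A match describes letters only, and these 4 genes include Gclm and Txnrd1, higher in KO, Sod1, lower in KO, and Nfe2l2, which did not pass the test.

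Of the 10 genes, Txnrd1 and Gclm were higher in KO than in KO+NM1 pieces, and Cat, Nqo1, Sod1, Gclc and Gpx1 were lower, at an adjusted p under 0.05 (edgeR quasi-likelihood test, Benjamini-Hochberg over 16887 genes). Nfe2l2, Hmox1 and Sod2 did not pass. The share of all genes tested that passed was 25.7% for higher and 24.5% for lower, and 50.2% in all, beside which stand the 2 higher, 5 lower and 7 in all of these 10. The median log2 fold change was -0.81 over the 10 genes and -0.0017 over all genes tested. With a change of at least 2-fold also required, Txnrd1 was higher and Cat, Nqo1 and Sod1 were lower, 4 of 10 against 37.3% of all genes. The pieces of the groups did not overlap for 8 of the 10 genes, 2 higher and 6 lower in KO, against 57% of all genes. In what follows values are CPM scaled by TMM factors, KO pieces 01 to 03 come first and KO+NM1 pieces 01 to 04 second, and log2 fold changes are KO minus KO+NM1.

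**Figure D1:**
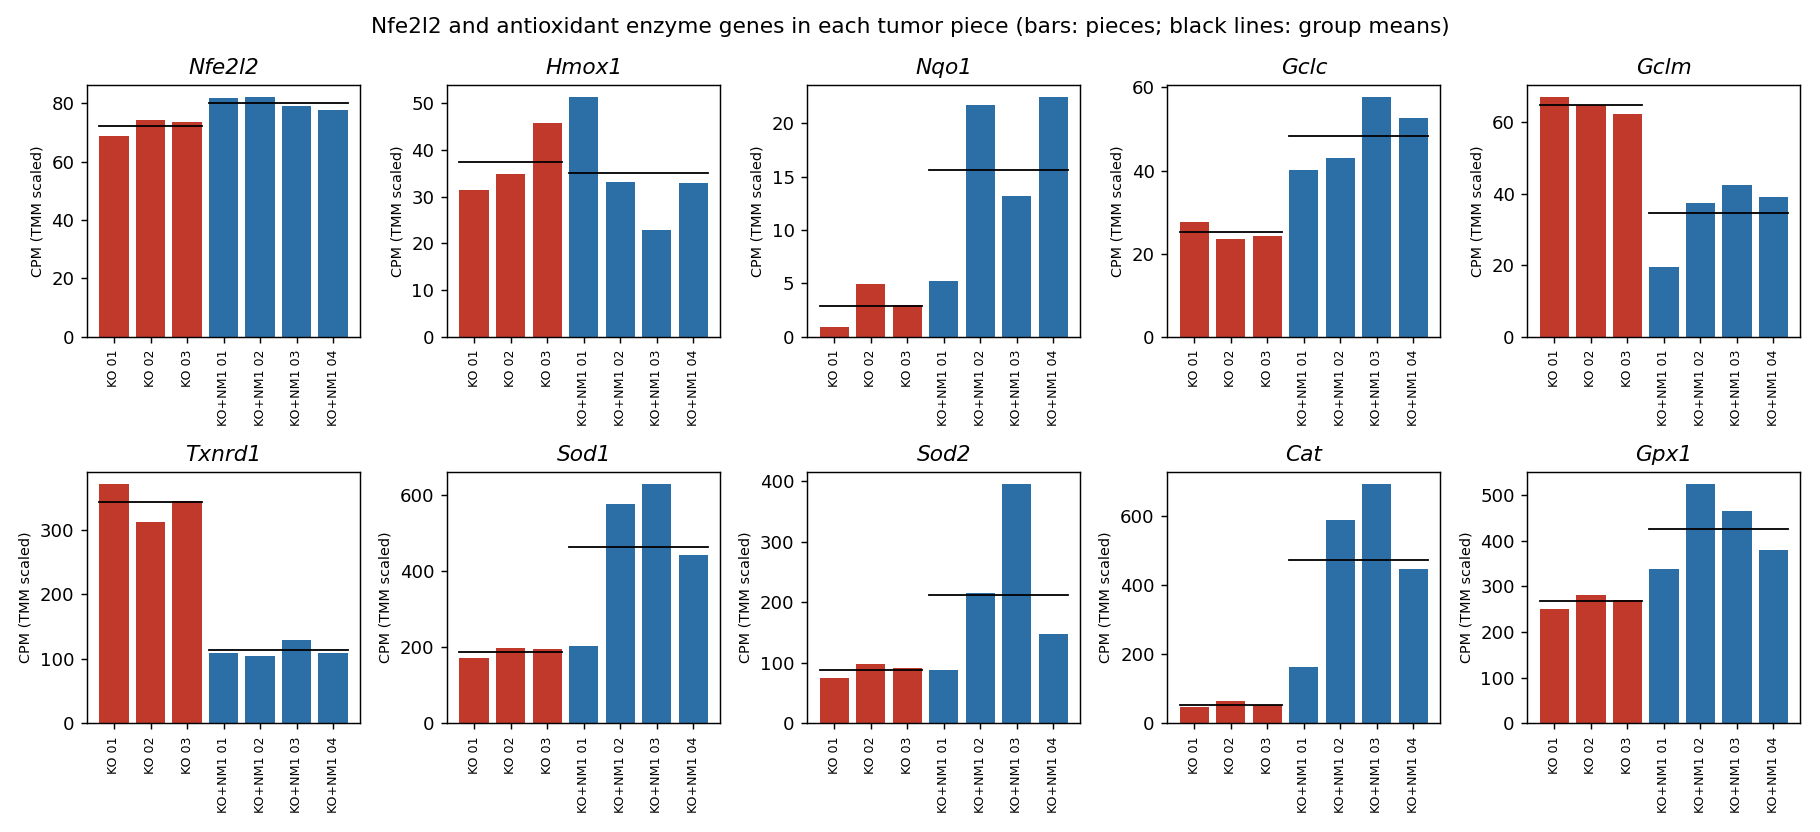
CPM (TMM scaled, y axes from 0) of Nfe2l2 and the 9 enzyme genes in each of the 3 KO and 4 KO+NM1 tumor pieces, with a black line at each group mean. Txnrd1 and Gclm stand higher in every KO piece, Cat lower in every KO piece, and Hmox1 overlaps between the groups.

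Nfe2l2 (ENSMUSG00000015839, chromosome 2, 75675513 to 75704641, minus strand) was at 68.7, 74.3 and 73.7 CPM in the KO pieces. In the KO+NM1 pieces it was at 81.9, 82.2, 79.1 and 77.7 CPM. The groups did not overlap, every KO piece being lower, but the means of 72.2 ± 3.10 (SD, n = 3) and 80.2 ± 2.19 (SD, n = 4) were close. The log2 fold change was -0.15 (SE 0.11, 95% interval -0.40 to 0.10, edgeR adjusted p = 0.271). Without KO+NM1 piece 01 the adjusted p was 0.0191, with upper-quartile scaling it was 0.0449 and with the Wald test of DESeq2 it was 0.00365. When CPM were scaled by library size alone the change was 0.03, the opposite sign. Both the call and the sign for this transcript thus depended on the scaling.

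Hmox1 (ENSMUSG00000005413, chromosome 8, 75093621 to 75100589, plus strand) encodes heme oxygenase 1, which opens the heme ring and releases iron, biliverdin and carbon monoxide. It was at 31.4, 35.0 and 45.7 CPM in KO and at 51.4, 33.1, 22.8 and 33.0 CPM in KO+NM1. The highest and the lowest of the 7 pieces were both KO+NM1 pieces, 01 and 03. The log2 fold change was 0.09 (SE 0.29, 95% interval -0.58 to 0.76, edgeR adjusted p = 0.814). Its sign turned with size factors of DESeq2 or upper-quartile factors and when KO piece 03 or KO+NM1 piece 03 was left out, to -0.19 and -0.08.

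Nqo1 (ENSMUSG00000003849, chromosome 8, 107388225 to 107403206, minus strand) encodes a quinone reductase that uses NADH or NADPH and is a standard readout of Nrf2 activity. It was at 0.933, 4.90 and 2.94 CPM in KO, which is 28, 141 and 89 reads. In KO+NM1 it was at 5.22, 21.7, 13.2 and 22.5 CPM, or 143, 534, 267 and 547 reads. The groups were separate, though KO piece 02 lay just under KO+NM1 piece 01. It was 5.35-fold lower in KO (log2 fold change -2.42, SE 0.66, edgeR adjusted p = 0.0266). The adjusted p was 0.0549 without KO piece 01, 0.0751 without KO piece 03, 0.0621 without KO+NM1 piece 02 and 0.0606 without KO+NM1 piece 04, so the call is lost with any of these pieces left out.

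The enzyme that makes gamma-glutamylcysteine, the first and rate-limiting step of glutathione synthesis, has a catalytic subunit from Gclc and a modifier subunit from Gclm, and their genes moved in opposite directions. Gclc (ENSMUSG00000032350, chromosome 9, 77754535 to 77794485, plus strand) was at 27.7, 23.4 and 24.2 CPM in KO and at 40.2, 43.1, 57.7 and 52.5 CPM in KO+NM1. Every KO piece was lower, by 1.93-fold (log2 fold change -0.95, SE 0.17, edgeR adjusted p = 0.00406), and the call was kept under all 16 alternatives. Gclm (ENSMUSG00000028124, chromosome 3, 122245557 to 122270732, plus strand) was at 67.1, 64.9 and 62.2 CPM in KO and at 19.4, 37.5, 42.4 and 39.1 CPM in KO+NM1. Here every KO piece was higher, by 1.87-fold (log2 fold change 0.90, SE 0.26, edgeR adjusted p = 0.0248). The Gclm call was less stable, with an adjusted p of 0.113, 0.102 and 0.0953 when KO piece 01, 02 or 03 was left out and 0.056 without KO+NM1 piece 02. It was also lost with upper-quartile factors (0.0569), with every gene of at least 1 count kept (0.0585) and with the replicate number as a block (0.0652), 7 of 16 alternatives in all. Gclm shares 296 exon bases with Gm17494 on the opposite strand, which held 49 to 190 reads, and the strand option of the counting is not given in the sources used here.

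A ratio of read counts within a library does not depend on how libraries are scaled. The ratio of Gclm to Gclc reads, a comparison chosen after the values were seen, was 2.42, 2.77 and 2.57 in KO and 0.482, 0.869, 0.735 and 0.744 in KO+NM1. Gclm reads thus outnumbered Gclc reads in every KO piece and were fewer in every KO+NM1 piece. The means were 2.59 ± 0.174 (SD, n = 3) and 0.708 ± 0.162 (SD, n = 4), a log2 difference of 1.90, given as a description with no test.

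Txnrd1 (ENSMUSG00000020250, chromosome 10, 82833951 to 82897712, plus strand), the cytosolic selenoenzyme that reduces thioredoxin with NADPH, had the lowest adjusted p of the 10. It was at 371, 312 and 344 CPM in KO and at 109, 105, 129 and 109.8 CPM in KO+NM1. The highest KO+NM1 piece was far under the lowest KO piece. It was 3.03-fold higher in KO (log2 fold change 1.60, SE 0.14, edgeR adjusted p = 0.000415), and between 1.42 and 1.79 on the log2 scale under the 16 alternatives, all of which kept the call. Its mitochondrial counterpart Txnrd2, named after its values were seen, was lower in KO, with a log2 fold change of -1.17 (SE 0.33, edgeR adjusted p = 0.0257). The ratio of Txnrd1 to Txnrd2 reads was 24.7, 18.5 and 21.9 in KO and 4.75, 2.90, 2.21 and 4.27 in KO+NM1, a description with no test, since the pair was chosen for its opposite directions.

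**Figure D2:**
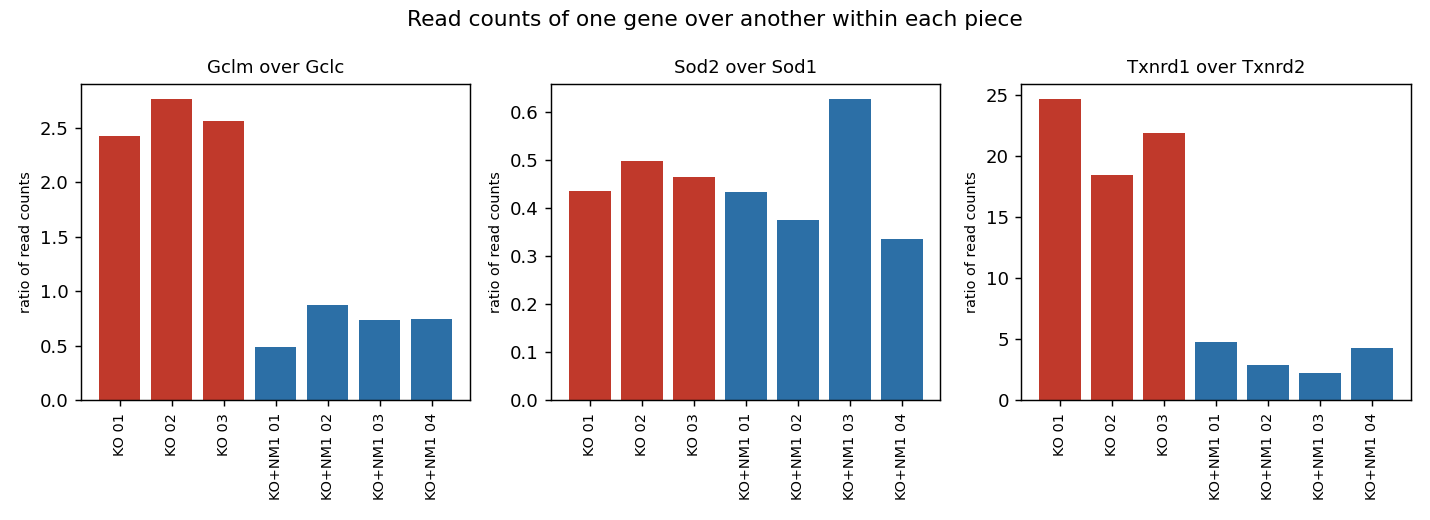
Read counts of Gclm over Gclc, Sod2 over Sod1 and Txnrd1 over Txnrd2 within each of the 7 pieces (bars, y axes from 0). The first and the last ratio are higher in every KO piece than in any KO+NM1 piece, and Sod2 over Sod1 overlaps between the groups.

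The superoxide dismutases, which turn superoxide into hydrogen peroxide, stood lower in every KO piece than in KO+NM1 pieces 02, 03 and 04. Sod1 (ENSMUSG00000022982, chromosome 16, 90220754 to 90226329, plus strand), the copper-zinc enzyme of the cytosol, was at 172, 197 and 196 CPM in KO and at 204, 575, 629 and 441 CPM in KO+NM1. KO+NM1 piece 01 lay just above the KO pieces and the other 3 well above. Sod1 was 2.45-fold lower in KO (log2 fold change -1.29, SE 0.36, edgeR adjusted p = 0.0254). The adjusted p was 0.0751, 0.0589 and 0.0641 when KO piece 01, 02 or 03 was left out, and 0.0609 and 0.0554 without KO+NM1 piece 02 or 03. With the replicate number as a block it was 0.0795.

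Sod2 (ENSMUSG00000006818, chromosome 17, 13006846 to 13040063, plus strand), the manganese enzyme of the mitochondrial matrix, was at 75.1, 98.4 and 90.9 CPM in KO and at 88.4, 216, 396 and 148 CPM in KO+NM1. KO+NM1 piece 01 lay inside the range of the KO pieces. The log2 fold change was -1.27 (SE 0.47, 95% interval -2.37 to -0.16, edgeR adjusted p = 0.0652), which did not pass. Without KO+NM1 piece 01 the adjusted p was 0.00455, and it was also under the threshold with upper-quartile scaling (0.0478), with the Wald test of DESeq2 (0.0157) and with limma voom with quality weights (0.00126). Reads from mitochondrially encoded genes made up 1.81% to 2.135% of counts in KO and 5.11%, 10.5%, 18.5% and 7.77% in KO+NM1 pieces 01 to 04. The KO+NM1 pieces stand in the same order for Sod2, and also for Sod1 and Cat. The part of this share in the values of these genes was not tested. The ratio of Sod2 to Sod1 reads, 0.436, 0.499 and 0.465 in KO and 0.433, 0.376, 0.629 and 0.335 in KO+NM1, overlapped between the groups.

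Hydrogen peroxide is removed by catalase, mostly in peroxisomes, and by glutathione peroxidase 1 in the cytosol and mitochondria. Cat (ENSMUSG00000027187, chromosome 2, 103453849 to 103485160, minus strand) was at 46.3, 63.4 and 54.1 CPM in KO and at 164, 587, 692 and 446 CPM in KO+NM1. The lowest KO+NM1 piece, 01, lay above every KO piece by more than the whole range of the KO pieces. Cat was 8.65-fold lower in KO (log2 fold change -3.11, SE 0.45, 95% interval -4.16 to -2.06, edgeR adjusted p = 0.00256), the largest change of the 10 genes, and lay between -3.53 and -2.86 under the 16 alternatives, all of which kept the call. Gpx1 (ENSMUSG00000063856, chromosome 9, 108338903 to 108340343, plus strand) was at 252, 280.5 and 269.8 CPM in KO and at 337, 525, 466 and 379 CPM in KO+NM1. Its groups were also separate, by a smaller step, 1.60-fold lower in KO (log2 fold change -0.67, SE 0.19, edgeR adjusted p = 0.0242). The Gpx1 call was lost without KO piece 01 or 03 (adjusted p 0.0637 and 0.0587) and without KO+NM1 piece 02 or 03 (0.0525 and 0.0502). It was also lost with library size alone (0.0627) and with the replicate number as a block (0.0677).

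**Figure D3:**
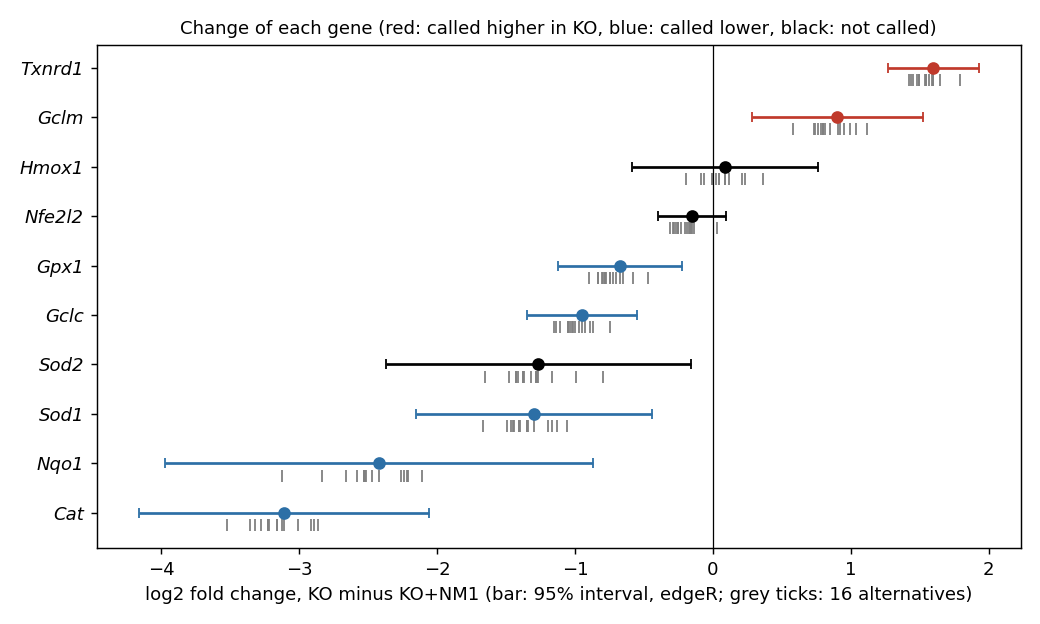
Log2 fold change of each of the 10 genes, KO minus KO+NM1 (points, with 95% intervals as bars, edgeR; grey ticks are the 16 alternatives). Cat at -3.11 and Txnrd1 at 1.60 lie farthest from 0 on either side with all ticks on one side, while ticks of Nfe2l2 and Hmox1 lie on both sides of 0.

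Piece KO+NM1 01 was the nearest of its group to the KO pieces for Nqo1, Gclc, Sod1, Sod2, Cat and Gpx1, and the farthest from them for Gclm. With it left out, 2 of the 10 genes were higher in KO and 7 lower, Nfe2l2 and Sod2 joining the other 5. Calls rose among all genes as well, to 35.8% higher and 36% lower of 16617 tested, and the list counts given below without this piece are to be read beside those shares. List counts by edgeR from all pieces are to be read beside 25.7% higher and 24.5% lower of all genes tested.

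The tissue makeup of the pieces moved with these groups. The summed level of 10 white adipocyte markers was 118, 310.1 and 174 CPM in KO and 4770, 34996, 34991 and 24822 CPM in KO+NM1, and 10 of 10 were lower in KO. None of the 10 stood at 3 counts or fewer throughout a group, and Adipoq, which encodes adiponectin, was at 0.400, 9.18 and 2.67 CPM in KO against 235, 2072, 1757 and 1459 CPM in KO+NM1. Their sum in KO+NM1 piece 01 was the lowest of its group, as were the levels of Nqo1, Gclc, Sod1, Sod2, Cat and Gpx1, and the sum was highest in pieces 02 and 03, where Sod1, Sod2, Cat and Gpx1 were highest. Nqo1 and Gclc did not follow that order, with Nqo1 highest in piece 04 and Gclc higher in pieces 03 and 04 than in 02. Endothelial markers summed to 193 to 219.7 CPM in KO and 1052 to 1535 CPM in KO+NM1, with 7 of 7 lower in KO, and erythroid markers to 19.5 to 30.1 CPM and 219 to 830.4 CPM, with 5 of 5 lower. Brown adipocyte markers summed to 8.40, 35.2 and 23.6 CPM in KO and to 413, 947, 3633 and 444 CPM in KO+NM1, highest in piece 03 as Sod2 was, with 4 of 6 lower in KO. Mammary epithelium markers summed to 3.80 to 67.8 CPM in KO and 423 to 1816 CPM in KO+NM1, with 4 of 6 tested lower. Wap, left untested for low counts, was at 0 CPM in KO and at most 0.082 CPM in KO+NM1. The part of these cells in the lower enzyme levels was not tested.

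In the other direction, 9 of 9 skeletal muscle markers tested were higher in KO, with a sum of 2575, 21306 and 17085 CPM in KO and 6.97 to 25.9 CPM in KO+NM1, where 4 of the 10 listed stood at 3 counts or fewer in every piece. Macrophage markers summed to 3192 to 3645 CPM in KO and to 2505, 855, 678 and 952 CPM in KO+NM1, with 7 of 10 higher and 1 lower in KO. In KO+NM1 piece 01, 1898 CPM of that sum was Lyz2 alone. Txnrd1 and Gclm were highest in KO piece 01, which had the lowest muscle sum and the lowest macrophage sum of the KO pieces. Muscle and macrophage sums are given because they move with Txnrd1 and Gclm between the groups, and their part in those results was not tested. Fibroblast markers, which cannot tell injected cells from host cells here, were present throughout. They summed to 7198 to 12994 CPM in KO and to 2847 to 13010 CPM in KO+NM1, with 0 of 8 passing as higher and 4 as lower in KO. By level alone, Col1a1 was higher and Dcn lower in every KO piece than in any KO+NM1 piece.

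Between genes, levels were compared as CPM per kilobase of the principal transcript. In KO the order was Sod1 at 294 ± 21.7, Gpx1 at 249 ± 13.6, Txnrd1 at 97.0 ± 8.40, Nfe2l2 at 29.2 ± 1.25, Hmox1 at 23.8 ± 4.75, Cat at 20.9 ± 3.28, Sod2 at 15.0 ± 2.03, Gclm at 11.6 ± 0.435, Gclc at 7.34 ± 0.657 and Nqo1 at 1.88 ± 1.28 CPM per kilobase (SD, n = 3). Only the neighbours Nfe2l2 and Hmox1, and Hmox1 and Cat, overlapped between pieces. In KO+NM1 the order was Sod1 at 721 ± 296, Gpx1 at 398 ± 78.8, Cat at 181 ± 87.7, Sod2 at 36.2 ± 22.7, Nfe2l2 at 32.4 ± 0.886, Txnrd1 at 32.0 ± 3.04, Hmox1 at 22.4 ± 7.59, Gclc at 14.1 ± 2.38, Nqo1 at 10.1 ± 5.24 and Gclm at 6.19 ± 1.85 CPM per kilobase (SD, n = 4), and all neighbours but Gpx1 and Cat overlapped. Cat ranked 6 in KO and 3 in KO+NM1, and Txnrd1 ranked 3 and 6. With the union of all exons as length, Gpx1 ranked 1 and Sod1 ranked 3 in both groups, since the principal transcript of Sod1 is only 641 bases.

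**Figure D4:**
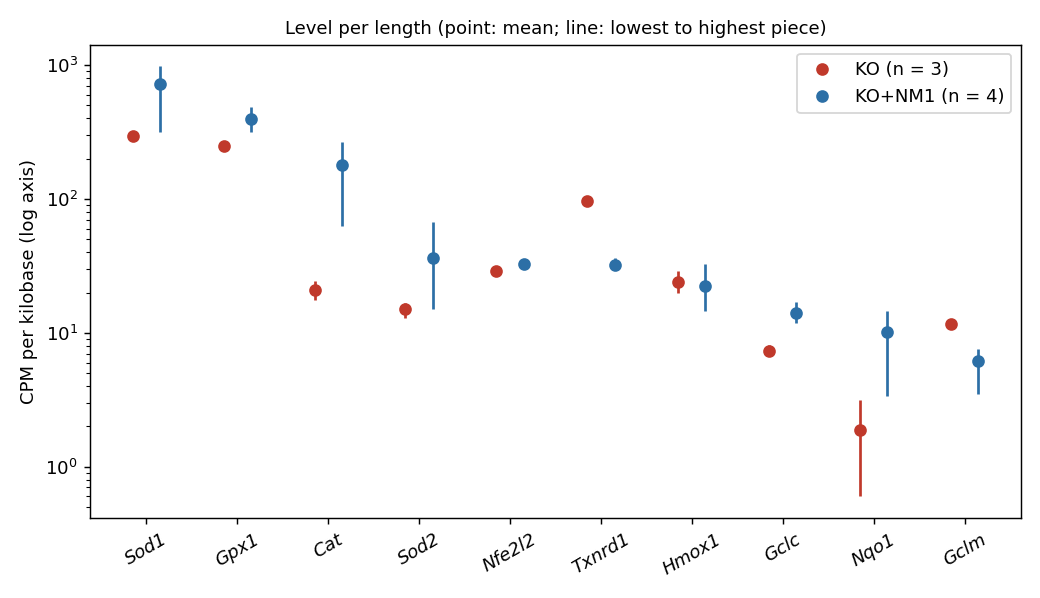
Level per length of the 10 genes in each group, in CPM per kilobase of the principal transcript (log y axis; points are group means, lines run from the lowest to the highest piece). Sod1 and Gpx1 lead in both groups, and Cat lies at 20.9 in KO and at 181 in KO+NM1.

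Over the 7 pieces, as a description, log2 CPM of Cat, Sod1 and Gpx1 ran together, with Pearson's r of 0.956 for Cat and Sod1, 0.961 for Cat and Gpx1 and 0.943 for Sod1 and Gpx1. Nfe2l2 ran with Gpx1 (0.814) and Nqo1 (0.804), against Txnrd1 (-0.907) and Gclm (-0.825), and hardly with Hmox1 (0.092). These coefficients share the library scaling and the split into groups. The 5 genes most like Nfe2l2 among 12282 with a mean of at least 5 CPM were Stx4a at 0.991, Bcl2l12 at 0.984, Oma1 at 0.982, Osgep at 0.979 and Zfp784 at 0.978. Their log2 fold changes were -0.47, -0.91, -0.68, -0.87 and -1.07, given with no test. These genes were chosen over the same pieces by likeness to Nfe2l2, which was lower in every KO piece. Their lower levels in KO thus followed from the choice.

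The proteins that control Nrf2 or pair with it were read from 12 genes. Of these, 5 were higher in KO and 1 lower, with a median log2 fold change of 0.37. Keap1, the sensor, was at 71.6 ± 8.31 CPM in KO and 73.4 ± 6.31 CPM in KO+NM1, with a log2 fold change of -0.04 (SE 0.14, edgeR adjusted p = 0.844) and a range of -0.19 to 0.15 across scalings. The ligase scaffold Cul3 was higher in KO, at 179 ± 6.64 against 109 ± 3.69 CPM (log2 fold change 0.71, SE 0.11, edgeR adjusted p = 0.00213). Bach1, the repressor that competes at AREs, was also higher, at 62.5 ± 4.08 against 32.9 ± 4.50 CPM (log2 fold change 0.93, SE 0.15, edgeR adjusted p = 0.00231). The other genes that passed, named after their values were seen apart from Mafk, were the ligase subunit Rbx1 (0.64) and the small Mafs Mafg (0.46) and Maff (0.60), higher, and the small Maf Mafk (-0.50), lower. Mafg and Maff passed under 2 of 4 scalings and Mafk under 3. Without KO+NM1 piece 01 the counts were 3 higher and 2 lower.

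Of 25 further genes known as Nrf2 targets, 6 were higher and 13 lower in KO, with a median log2 fold change of -0.69 that stayed between -0.85 and -0.48 across scalings. The lists overlap, so genes such as Srxn1, Txn1, Me1 and Fth1 are counted here and again in a list below. Srxn1, sulfiredoxin, which repairs overoxidized peroxiredoxins, was higher at 121 ± 27.6 against 38.3 ± 14.7 CPM (log2 fold change 1.66, SE 0.34, edgeR adjusted p = 0.0066). Ptgr1, an NADPH-dependent reductase of enals and prostaglandins, was higher at 23.0 ± 1.85 against 10.6 ± 2.05 CPM (1.12, SE 0.20, edgeR adjusted p = 0.00402). The glutathione transferases Gsta3 and Gsta4 had the largest falls of the list. Gsta3 had 1, 7 and 3 reads in KO and 185, 1414, 922 and 1313 in KO+NM1, and Gsta4 was at 2.18 ± 1.19 against 72.6 ± 40.8 CPM (-5.05, SE 0.66, edgeR adjusted p = 0.00242). Both directions thus occurred among these targets, as they did for Txnrd1 and Gclm against Nqo1 and Gclc.

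Glutathione synthesis, recycling and peroxidase genes, 19 tested besides the 10, had 1 higher and 6 lower, with a median of -0.49, and 1 higher and 11 lower without KO+NM1 piece 01. Gpx8, a peroxidase of the endoplasmic reticulum, was the one higher, at 40.4 ± 1.35 against 17.1 ± 8.66 CPM (log2 fold change 1.24, SE 0.42, edgeR adjusted p = 0.042), a call made under 2 of 4 scalings. Gpx3, the secreted peroxidase, was lower at 84.4 ± 22.6 against 602 ± 283 CPM (-2.83, SE 0.49, edgeR adjusted p = 0.00487). Oplah, 5-oxoprolinase, which returns glutamate to glutathione synthesis, was lower at 13.5 ± 6.13 against 147 ± 89.4 CPM (-3.45, SE 0.59, edgeR adjusted p = 0.00553).

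Among 15 thioredoxin and peroxiredoxin genes 3 were higher and 3 lower, and 4 and 9 without KO+NM1 piece 01, where 35.8% and 36% of all genes were. Those higher were Srxn1, Prdx4, the peroxiredoxin of the endoplasmic reticulum, at 124 ± 36.9 against 34.7 ± 5.98 CPM (log2 fold change 1.84, SE 0.23, edgeR adjusted p = 0.00116), and thioredoxin itself, Txn1, named after its values were seen, at 340.2 ± 26.2 against 179.7 ± 15.7 CPM (0.92, SE 0.14, edgeR adjusted p = 0.00194). Txn1 and the enzyme that reduces it, Txnrd1, were thus both higher in KO. Txnip, which binds and inhibits thioredoxin, was lower at 176 ± 37.4 against 1213 ± 427 CPM (-2.78, SE 0.36, edgeR adjusted p = 0.00161), as was Prdx6 at 97.4 ± 5.09 against 272 ± 105 CPM (-1.48, SE 0.35, edgeR adjusted p = 0.0134).

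**Figure D5:**
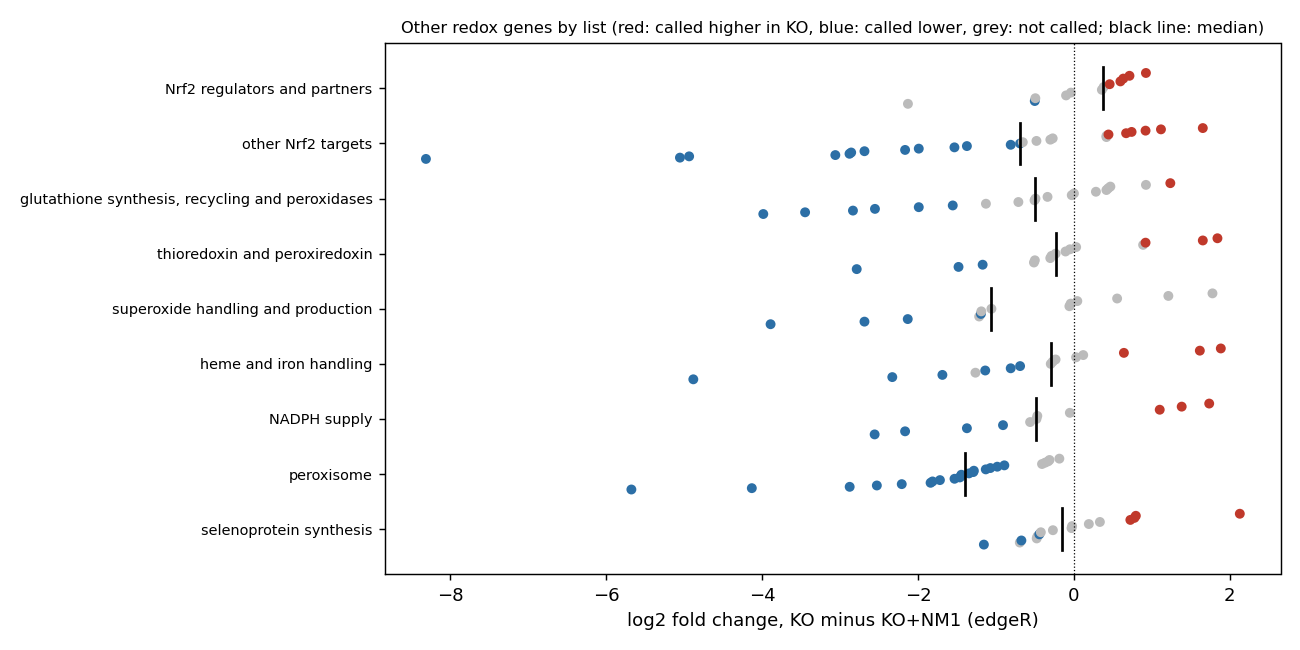
Log2 fold change, KO minus KO+NM1, of each tested gene in 9 lists of redox genes outside the 10 (points, red higher and blue lower in KO at an adjusted p under 0.05 by edgeR, grey not passed; black lines are medians). A gene that stands in several lists is drawn in each. The peroxisome list has the lowest median, -1.39, and the list of Nrf2 regulators has a median of 0.37.

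Superoxide handling and production had 0 of 13 genes higher by edgeR and 4 lower. At an unadjusted p under 0.05 the edgeR counts were 1 higher and 5 lower. At an adjusted p under 0.05 those of DESeq2 were 1 and 5, and those of limma voom 5 and 7. Over all 16887 genes limma voom had 7038 higher and 5951 lower. Sod3, the extracellular dismutase, was lower at 26.1 ± 10.2 against 387 ± 175 CPM (log2 fold change -3.89, SE 0.47, edgeR adjusted p = 0.00161), so all 3 dismutases had lower means in KO. Without KO+NM1 piece 01, 5 of 13 genes were higher and 8 lower, where 35.8% and 36% of all genes were. Among those higher were Cybb and Ncf1, which encode parts of the phagocyte NADPH oxidase and were named after their values were seen, with log2 fold changes of 2.78 and 2.45 in that fit. Ncf1 was at 46.1, 56.9 and 65.0 CPM in KO, 189 CPM in KO+NM1 piece 01 and 10.5, 7.61 and 9.99 CPM in pieces 02 to 04. Macrophage sums were 2505 CPM in piece 01 and 678 to 952 CPM in those 3, neutrophil sums 86.1 and 7.65 to 10.6 CPM, and B and plasma cell sums 4184 and 3.33 to 17.2 CPM. Most of the macrophage sum in piece 01 was Lyz2 alone, at 1898 CPM against 196 to 272 CPM in those 3. Adgre1, Mrc1 and Cd14 stood lower in piece 01 than in those 3, and the other listed macrophage markers higher. The part of these cells was not tested.

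Peroxisomal genes were 0 of 24 higher and 19 lower in KO by edgeR, with a median of -1.39 and a range of -1.55 to -1.16 across scalings. The edgeR counts at an unadjusted p under 0.05 were also 0 and 19. At an adjusted p under 0.05 those of DESeq2 were 0 and 22 and those of limma voom 0 and 23. Cat, the peroxide-removing enzyme of this organelle, was lower along with 19 of the 24. The largest falls were Abcd2, a transporter of fatty acyl-CoA, at 5.27 ± 1.65 against 270 ± 149 CPM (log2 fold change -5.68, SE 0.60, edgeR adjusted p = 0.00141) and Ehhadh, an enzyme of peroxisomal beta-oxidation, at 2.17 ± 0.908 against 38.1 ± 19.9 CPM (-4.13, SE 0.48, edgeR adjusted p = 0.00146). White adipocyte sums moved the same way, and their part was not tested.

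NADPH is used by Nqo1, Txnrd1 and glutathione reductase. Of 11 genes listed under NADPH supply, with enzymes of the cytosol or of mitochondria, 3 were higher and 4 lower. Which of them serve those 3 enzymes was not tested. Nadk2, the mitochondrial NAD kinase, was higher at 61.6 ± 9.75 against 23.6 ± 7.51 CPM (log2 fold change 1.38, SE 0.27, edgeR adjusted p = 0.0049), and mitochondrial malic enzyme Me2 at 91.0 ± 18.7 against 27.3 ± 25.1 CPM (1.74, SE 0.60, edgeR adjusted p = 0.0459), the latter passing under 2 of 4 scalings. The cytosolic enzymes Idh1 at 47.5 ± 3.09 against 279 ± 118 CPM (-2.55, SE 0.38, edgeR adjusted p = 0.00264) and Me1 at 116 ± 3.40 against 519 ± 335 CPM (-2.16, SE 0.55, edgeR adjusted p = 0.02) were lower. Without KO+NM1 piece 01, 3 were higher and 6 lower.

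Of 15 genes of heme and iron handling, the surroundings of Hmox1, 3 were higher and 6 lower. Among all genes tested the shares were 25.7% higher and 24.5% lower. The iron importers were among the higher, the transferrin receptor Tfrc at 88.5 ± 18.0 against 23.9 ± 8.57 CPM (log2 fold change 1.89, SE 0.30, edgeR adjusted p = 0.00253) and Slc11a2 at 95.4 ± 10.4 against 31.1 ± 4.34 CPM (1.62, SE 0.15, edgeR adjusted p = 0.000517). Haptoglobin, Hp, which binds free hemoglobin, was lower at 10.2 ± 9.71 against 299 ± 192 CPM (-4.88, SE 0.81, edgeR adjusted p = 0.00639), and ceruloplasmin, Cp, a copper ferroxidase, at 38.2 ± 8.82 against 192 ± 56.6 CPM (-2.33, SE 0.30, edgeR adjusted p = 0.00151).

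Txnrd1 and Gpx1 are selenoproteins and moved in opposite directions. Of 16 other genes of selenoproteins or of selenocysteine synthesis, 4 were higher and 3 lower, 4 and 7 without KO+NM1 piece 01, and the median of -0.15 turned sign across scalings, from -0.30 to 0.03. These counts leave out selenoproteins that stand in other lists. Of those, Gpx3 (-2.83) and Txnrd2 (-1.17) passed as lower, and Gpx4 (-1.13) and Txnrd3 (-0.23) did not pass. Selenoh, a nuclear selenoprotein, was higher at 78.5 ± 12.8 against 17.9 ± 8.96 CPM (log2 fold change 2.13, SE 0.36, edgeR adjusted p = 0.00303), as was Sephs1 at 78.3 ± 4.96 against 45.1 ± 1.56 CPM (0.80, SE 0.11, edgeR adjusted p = 0.00145). Selenok, of the endoplasmic reticulum, was lower at 46.7 ± 4.69 against 104 ± 18.8 CPM (-1.15, SE 0.18, edgeR adjusted p = 0.00244), and Msrb1, a methionine sulfoxide reductase, at 74.5 ± 6.07 against 119 ± 25.8 CPM (-0.67, SE 0.20, edgeR adjusted p = 0.0282), under 3 of 4 scalings.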

How the data were processed

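The authors trimmed reads with Trimmomatic 0.36, checked them with FastQC, aligned them to GRCm38/mm10 with HISAT2 2.0.4, sorted them with SAMtools 0.1.19 and deposited raw read counts per Ensembl gene made by HTSeq. The annotation release and the strand option are not given in the sources used here, nor is the test behind the web tool NASQAR that the methods name. Symbols came from GENCODE M21.

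In R 4.3.3, edgeR 4.0.16 was run on the 3 KO and 4 KO+NM1 libraries: filterByExpr with a minimum count of 10 left 16887 genes, TMM gave the library factors, and quasi-likelihood p-values were adjusted over those genes by Benjamini-Hochberg. Levels per length used the APPRIS principal transcript. The counts of calls among the 10 genes and all genes, and the fold changes of the 10, were recomputed with size factors of DESeq2, with upper-quartile factors, with library size alone, without mitochondrially encoded genes, with 2 other count filters, with the Wald test of DESeq2 1.42.0, with voom of limma 3.58.1 and quality weights, with a replicate block, and without each library in turn. List counts were recomputed under the scalings, the other tools, a 2-fold requirement and without KO+NM1 piece 01 (the last 2 added after seeing the data). Ratios, levels per length and correlations were given once, apart from union exon length for the levels. This procedure was first tested on simulated data. Pairs of libraries within a group were checked for shared reads, and no library repeated another (chi-square per degree of freedom 35.2 to 687).

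Named pathway genes were the 2 largest rises and 2 largest falls of each list among genes past the threshold with a mean of at least 5 CPM, plus Keap1, and others are said to be chosen after seeing values. The 10 genes, the lists and the alternatives were chosen with earlier results of these data known. Some items are not reported here.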

Additional observations from a re-analysis of the deposited data

How the results depend on the processing

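The direction was kept for Nqo1, Gclc, Gclm, Txnrd1, Sod1, Sod2, Cat and Gpx1 under all 16 alternatives, and the call for Gclc, Txnrd1 and Cat. Hmox1 turned to -0.0023 with DESeq2's size factors, -0.061 with upper-quartile factors, -0.0038 with every gene of at least 1 count, -0.0026 with the Wald test of DESeq2, -0.19 without KO piece 03 and -0.08 without KO+NM1 piece 03 (-0.19 to 0.21 with any 1 piece left out). Nfe2l2 turned to 0.031 with library size alone. Of the 10 genes, 1 was higher in KO with upper-quartile factors, with every gene of at least 1 count, with the replicate block, and with a 2-fold change required, where 3 were lower. With 1 piece left out, 1 to 2 were higher and 2 to 7 lower, and over all genes 2910 to 5957 were higher and 3226 to 5980 lower. Over all genes 7038 were higher with voom and 2882 with the 2-fold requirement. Relative to TMM, the median of all genes shifted by -0.10 with DESeq2's size factors, -0.16 with upper-quartile factors and 0.18 with library size alone. The cause of these moves was not tested.

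With the replicate number as a block, 1 of the 10 was higher and 3 lower, and 3019 and 2680 of all genes. Deviations of same-numbered pieces correlated at 0.080, 0.102 and -0.017, and 4 of 6 libraries correlated best with their own number. Whether same-numbered pieces share more than a number was not tested. The small number of pieces, possibly of 1 tumor per group, limits every p-value.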
